A study of Mus musculus with 18 samples.

Results

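Livers labelled BH-KO were compared with livers labelled BH-WT, both taken at 10 weeks of age from a mouse line with conditional alleles of Arntl and of Hnf4a. The labels place 3 libraries in each of these groups, so the comparison holds 6 of the 18 libraries of the series and all 52636 genes of its count table. BH-KO and BH-WT mice share a strain label of mixed B6 and 129S4/SvJae, 129X1/SvJ and 129S2/SvPas origin that joins Arntltm1Weit, Hnf4atm1.1Gonz and Albtm1(cre/ERT2)Mtz, the last of which puts a Cre recombinase that tamoxifen switches on into the albumin gene. The treatment text gives tamoxifen at 10 mg/mL in corn oil on 5 days at 8 weeks of age for all mice, WT included, and the sources do not say how WT mice differed from KO mice. H-KO and H-WT livers, 3 libraries each from a 10-week line with the Hnf4a allele and the same Cre but no Arntl allele in its label, were used beside them and received the same tamoxifen. The last 6 libraries, BH-HF-KO and BH-HF-WT, come from the line with both alleles at 45 weeks of age after 35 weeks of high-fat food. They entered the choice of genes tested, the scaling of the libraries and the estimate of spread between replicates, and are not described further. Livers were frozen after harvest at ZT8, a time counted in hours from when the lights go on, and their total RNA was sequenced. The design text of the series calls the 3 libraries of a group biological replicates. Albumin is made by hepatocytes, so the Cre acts in these cells, and macrophages, endothelial and stellate cells in the same RNA keep their alleles.

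Arntl encodes BMAL1, which pairs with CLOCK or NPAS2, binds E-boxes and activates the genes of the period, cryptochrome and REV-ERB repressors as well as clock outputs such as Dbp. PER and CRY proteins block that activation, while REV-ERB repressors and ROR activators compete at ROR elements in genes such as Arntl itself. Hnf4a encodes a nuclear receptor of hepatocytes that is known to maintain their genes for lipoproteins, clotting factors, bile acid enzymes and drug metabolism.

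BH-KO replicate 1 stood apart from the other BH-KO libraries, and results are therefore given with and without it. Read totals gave no sign of this, with 7660801, 8396424 and 8757684 counts in BH-KO and 8211994, 8618642 and 6846471 counts in BH-WT. Expression is given in CPM, the counts of a gene as a share of the library's total (per 1e+06) after scaling by its TMM factor, which corrects for a few abundant RNAs taking up reads. That factor was 0.881, 1.256 and 1.299 in the BH-KO libraries and 0.869 to 0.949 in the BH-WT libraries. Albumin RNA took 3.71%, 2.36% and 1.79% of all counts in BH-KO, against 6.69 to 8.48% in BH-WT. Mitochondrially encoded RNA took 9.45%, 3.7% and 4.17% in BH-KO, against 7.2 to 7.66% in BH-WT. The defining hepatocyte markers were abundant in all 6 libraries, and the Y-linked gene Ddx3y was at 115 to 185 CPM in each of them. In H-WT replicate 3 it was at 5.74 CPM beside 1080 CPM of Xist, the pattern of a female. At these depths 3 counts correspond to 0.264 to 0.48 CPM, and levels below that are not told apart from 0; such floors cover counting error only.

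Over the 13958 genes tested, the distance between a pair of libraries was taken as the root mean square difference of their log2 CPM. It was 0.445 between BH-KO replicates 2 and 3, and 1.044 and 1.038 between replicate 1 and these. From replicate 1 to the BH-WT libraries it was 0.814, 0.908 and 0.818, so that replicate 1 lay closer to each BH-WT library than to either other BH-KO library. Replicates 2 and 3 lay 1.167 to 1.27 from BH-WT, and the BH-WT libraries lay 0.571 to 0.748 from each other. The biological coefficient of variation, edgeR's measure of spread between replicates, was 0.388 within BH-KO and 0.222 within BH-WT, against 0.115 in H-KO and 0.246 in H-WT. In 3717 genes, 26.6% of those tested, the 3 BH-KO libraries spanned more than 2-fold, against 2489 genes or 17.8% for BH-WT. Replicate 1 was the library farthest from the other 2 in 80.4% of those 3717 genes. No library was a repeat of another, since counts differed far beyond sampling noise in every pair of a group (chi-square per degree of freedom of 15.8 at the lowest in BH-KO and 12.5 in BH-WT).

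**Figure D1:**
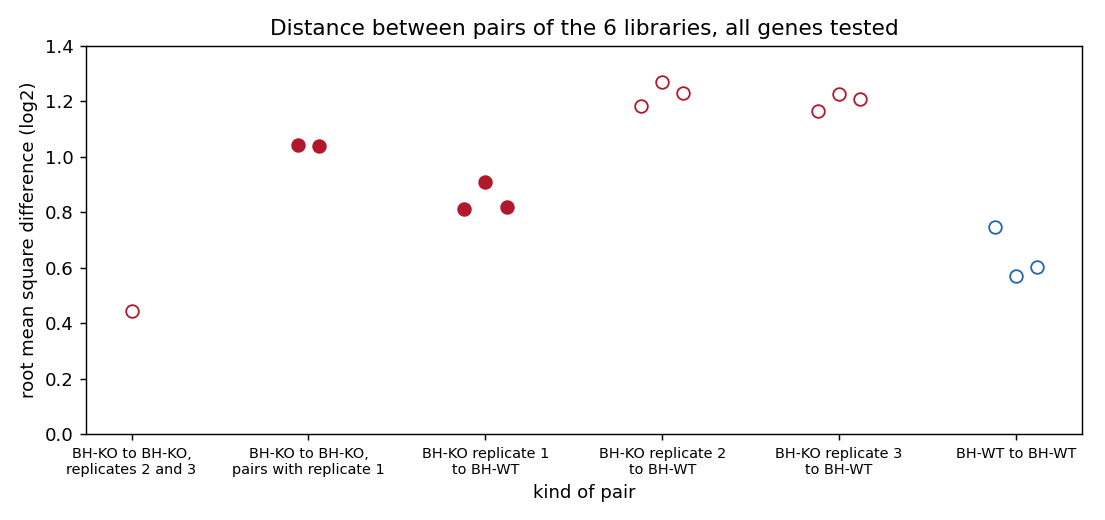
Root mean square difference of log2 CPM (y axis) for the 15 pairs of the 6 libraries, grouped on the x axis by kind of pair, with filled points for pairs within BH-KO or with BH-WT that contain BH-KO replicate 1. The pair of BH-KO replicates 2 and 3 has the smallest distance, 0.445, and BH-KO replicate 1 lies at 1.044 and 1.038 from them but at 0.814 to 0.908 from BH-WT.

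Promoter windows of 5 clock genes that passed the test described below, and of 1 HNF4A target, are shown because each holds an element of the kind named above. Each window holds 250 bases before and 50 after a gene's start, taken from RefSeq (GRCm38.p6), and is written 5′ to 3′ along the gene's strand with the matched element in capitals. Elements searched on both strands were the E-box CACGTG, the ROR element ANTAGGTCA and an HNF4A-type element CAAAGTCCA. Bhlhe41 (chr6:145865371-145865670, minus strand), Ciart (chr3:95882179-95882478, minus strand) and Cry1 (chr10:85185005-85185304, minus strand) held E-boxes. Arntl (chr7:113207261-113207560, plus strand) and Nfil3 (chr13:52980990-52981289, minus strand, where the element reads on the opposite strand) held ROR elements, and Cyp8b1 (chr9:121916256-121916555, minus strand) held the HNF4A-type element.
Bhlhe41: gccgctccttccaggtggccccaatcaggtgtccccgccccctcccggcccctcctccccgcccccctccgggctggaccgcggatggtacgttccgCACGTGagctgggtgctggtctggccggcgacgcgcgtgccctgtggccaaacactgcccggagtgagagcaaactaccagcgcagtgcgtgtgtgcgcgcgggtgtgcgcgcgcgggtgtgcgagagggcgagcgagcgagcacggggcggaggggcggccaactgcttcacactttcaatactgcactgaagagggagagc
Ciart: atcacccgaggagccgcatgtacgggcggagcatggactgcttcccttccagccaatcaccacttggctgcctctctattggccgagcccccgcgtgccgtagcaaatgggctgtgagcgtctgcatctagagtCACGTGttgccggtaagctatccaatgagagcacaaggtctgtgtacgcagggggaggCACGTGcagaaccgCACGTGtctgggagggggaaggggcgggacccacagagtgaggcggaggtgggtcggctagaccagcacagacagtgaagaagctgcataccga
Cry1: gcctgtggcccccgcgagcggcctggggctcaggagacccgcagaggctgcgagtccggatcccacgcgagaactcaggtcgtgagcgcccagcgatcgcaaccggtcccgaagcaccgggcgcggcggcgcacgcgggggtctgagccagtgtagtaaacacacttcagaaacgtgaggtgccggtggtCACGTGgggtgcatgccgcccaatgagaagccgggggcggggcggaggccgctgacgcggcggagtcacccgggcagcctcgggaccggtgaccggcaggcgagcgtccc
Arntl: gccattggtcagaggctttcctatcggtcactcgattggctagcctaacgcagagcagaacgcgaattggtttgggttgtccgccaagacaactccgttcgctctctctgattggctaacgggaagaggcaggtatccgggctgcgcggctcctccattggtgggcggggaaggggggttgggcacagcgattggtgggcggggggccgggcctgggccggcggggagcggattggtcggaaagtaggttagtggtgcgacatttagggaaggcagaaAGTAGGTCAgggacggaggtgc
Nfil3: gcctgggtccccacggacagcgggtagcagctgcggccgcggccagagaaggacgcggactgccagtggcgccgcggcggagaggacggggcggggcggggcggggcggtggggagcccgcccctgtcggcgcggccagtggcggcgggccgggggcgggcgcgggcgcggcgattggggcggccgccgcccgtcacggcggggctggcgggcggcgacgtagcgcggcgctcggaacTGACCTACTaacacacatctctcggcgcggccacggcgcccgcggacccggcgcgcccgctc
Cyp8b1: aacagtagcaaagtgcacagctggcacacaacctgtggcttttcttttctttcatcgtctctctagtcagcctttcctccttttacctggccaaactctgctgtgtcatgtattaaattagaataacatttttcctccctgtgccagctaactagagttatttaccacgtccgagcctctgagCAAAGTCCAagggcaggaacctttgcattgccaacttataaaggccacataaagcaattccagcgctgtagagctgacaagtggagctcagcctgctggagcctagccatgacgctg

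The window of Ciart held 3 E-boxes, and the others shown held 1 of the element named for them. Of 19 clock genes with a window, 5 held CACGTG (26.3%), against 1181 of 10145 tested genes with a window (11.6%) and 7.15% of all 32851 windows. Besides the 3 shown, these were Tef and Per1. The ROR element stood in 2 of the 19 (10.5%), against 0.572% of tested genes with a window and 0.661% of all windows. CAAAGTCCA stood in 2 of 32 HNF4A target genes with a window (6.25%), against 0.67% of tested genes with a window and 0.475% of all windows. A match describes these letters in this window and does not show binding.

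Arntl RNA was present in BH-KO and close to the floor in BH-WT, while the level of Hnf4a did not pass the test. Arntl (ENSMUSG00000055116, chromosome 7, 113207465 to 113314126 on the plus strand) was at 17.4, 22.4 and 24.1 CPM in BH-KO replicates 1, 2 and 3, against 0.421, 0.735 and 0.799 CPM in BH-WT replicates 1, 2 and 3. Every BH-KO library lay above every BH-WT library, with replicate 1 the lowest of the 3 BH-KO libraries. By edgeR's quasi-likelihood test, with p-values adjusted by the Benjamini-Hochberg method over the 13958 genes, the log2 fold change was 5.00 ± 0.43 (SE, adjusted p = 2.13e-06). Each SE of a log2 fold change is its absolute value divided by the square root of the test's F statistic. It is thus an approximation, above all for genes near the floor in a group. A gene passed where the adjusted p was under 0.05. The fit held 1 mean per group over all 18 libraries, whose spread is shared, including those of the older mice on high-fat food. Counts over a whole gene do not single out the deleted part, so neither gene can check the labels closely, and here the level of the gene named in the knockout was higher in the libraries labelled BH-KO. Directions below are those of the libraries as labelled. Hnf4a (ENSMUSG00000017950, chromosome 2, 163506808 to 163572910 on the plus strand) was at 867, 500.2 and 495 CPM in BH-KO replicates 1, 2 and 3, against 789, 889.6 and 772 CPM in BH-WT replicates 1, 2 and 3. BH-KO replicate 1 lay within the BH-WT range and replicates 2 and 3 below it. The log2 fold change was -0.40 ± 0.21 (adjusted p = 0.164), and -0.72 ± 0.16 without replicate 1 (edgeR adjusted p = 0.00281). In the Hnf4a line its level was 593 ± 56.3 CPM in H-KO and 757 ± 159 CPM in H-WT (SD, n = 3 each; -0.35, adjusted p = 0.208).

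Clock genes changed in both directions, and for 19 of 24 all 3 BH-KO libraries lay on the same side of all BH-WT libraries, against 34.9% of all tested genes, that is 4867. Of 24 clock genes, 7 rose and 10 fell, while 14.3% of all tested genes rose and 14.3% fell. Their median log2 fold change was -0.49, against 0.03 for all genes tested. Without BH-KO replicate 1, 7 rose and 10 fell as well. With 1 of the other 5 libraries of these groups left out, 6 to 7 rose and 9 to 11 fell, and such ranges stand beside the counts of the main lists below. All counts are of list members with enough reads to be tested. The partners of BMAL1 were higher in BH-KO. Npas2, a paralog of Clock that also pairs with BMAL1, was at 47.8, 37.9 and 40.4 CPM in BH-KO replicates 1, 2 and 3, against 0, 0.368 and 0 CPM in BH-WT replicates 1, 2 and 3. The sum was 1179 counts in BH-KO and 3 in BH-WT, which gives 296 as their ratio (95% counting interval 101 to 1440; adjusted p = 2.06e-06). Clock itself was at 117, 88.1 and 91.1 CPM in BH-KO replicates 1, 2 and 3, against 30.3, 36 and 35.2 CPM in BH-WT replicates 1, 2 and 3 (1.54 ± 0.20, adjusted p = 8.25e-05). For both genes the 3 BH-KO libraries lay well above the BH-WT range, with replicate 1 the highest.

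Repressors of the loop split. Cry1, which binds and blocks CLOCK and BMAL1, was at 84.2, 111 and 126 CPM in BH-KO replicates 1, 2 and 3, against 9.68, 12.6 and 11.8 CPM in BH-WT replicates 1, 2 and 3. Replicate 1 was the lowest BH-KO library and still lay above all BH-WT libraries (log2 fold change 3.23 ± 0.39, edgeR adjusted p = 6.88e-05). Nfil3, which represses the genes that DBP activates, was at 26.4, 18.8 and 19.2 CPM in BH-KO replicates 1, 2 and 3, against 11.1, 12.3 and 8.63 CPM in BH-WT replicates 1, 2 and 3 (1.0 ± 0.21, adjusted p = 0.00298). Nr1d1, the gene of REV-ERB alpha, was by contrast at 6.98, 6.09 and 5.64 CPM in BH-KO replicates 1, 2 and 3, against 129, 111 and 121 CPM in BH-WT replicates 1, 2 and 3. Its relative Nr1d2 was at 26.1, 23.1 and 28.8 CPM in BH-KO replicates 1, 2 and 3, against 204, 176 and 194 CPM in BH-WT replicates 1, 2 and 3. The 3 BH-KO libraries of each lay close together and far below BH-WT, and log2 fold changes were -4.28 ± 0.32 (edgeR adjusted p = 9.36e-07) and -2.88 ± 0.16 (adjusted p = 5.26e-08).

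Per3, a period gene, fell to 9.06, 22.5 and 17.9 CPM in BH-KO, against 116, 108 and 132 CPM in BH-WT (-2.83 ± 0.31, edgeR adjusted p = 2.47e-05). Per1 fell less, to 31.5, 33.3 and 47.2 CPM against 82.5, 48.7 and 53.9 CPM, and its BH-KO libraries lay below the BH-WT range, replicate 3 by little (-0.72 ± 0.23, adjusted p = 0.0263, and 0.0621 without BH-KO replicate 1). Per2 was at 45.3, 34.2 and 50.6 CPM in BH-KO and 61, 46.1 and 70 CPM in BH-WT, where the libraries overlapped, and did not pass (-0.44 ± 0.21, adjusted p = 0.126). Cry2, the second cryptochrome, fell (-0.71 ± 0.13, edgeR adjusted p = 0.0011). Ciart and Bhlhe41 encode further repressors of BMAL1 activity. Ciart was at 1.19, 3.33 and 4.67 CPM in BH-KO replicates 1, 2 and 3, against 38.3, 21.9 and 34.9 CPM in BH-WT replicates 1, 2 and 3 (-3.29 ± 0.46, adjusted p = 0.000247). For Bhlhe41 the values were 1.93, 0.38 and 0.0881 CPM in the BH-KO libraries and 19.9, 15.3 and 17.9 CPM in the BH-WT libraries (-4.69 ± 0.55, adjusted p = 4.01e-05), and BH-KO replicate 1 was the highest of its group. Bhlhe40 did not pass (-0.66 ± 0.25, adjusted p = 0.0543).

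Rora, the gene of the activator ROR alpha, overlapped between the groups and did not pass (187, 111 and 109 CPM in BH-KO, 141, 129.5 and 120.2 CPM in BH-WT, 0.06 ± 0.16, edgeR adjusted p = 0.821). Replicate 1 lay above the BH-WT range and replicates 2 and 3 below it, and the difference was -0.24 without replicate 1. Outputs of the clock were lower. Dbp, a regulator that cycles strongly in liver, was at 2.67, 6.75 and 8.11 CPM in BH-KO replicates 1, 2 and 3, against 170.2, 118 and 116 CPM in BH-WT replicates 1, 2 and 3. Its lowest level was in replicate 1, and the log2 fold change was -4.48 ± 0.33 (edgeR adjusted p = 8.98e-07). Tef, of the same family, was at 75.8, 65 and 65.3 CPM in BH-KO replicates 1, 2 and 3, against 336, 266 and 294 CPM in BH-WT replicates 1, 2 and 3 (-2.12 ± 0.16, adjusted p = 6.52e-07), whereas the third member Hlf did not pass (-0.54, adjusted p = 0.0705, and 0.0162 without BH-KO replicate 1). Usp2, a deubiquitinase under clock control, was at 25.1, 20 and 23.4 CPM in BH-KO replicates 1, 2 and 3, against 128, 76.8 and 88.9 CPM in BH-WT replicates 1, 2 and 3 (-2.11 ± 0.29, adjusted p = 0.000156). Csnk1d, the kinase that marks PER proteins, rose slightly (0.45 ± 0.12, adjusted p = 0.0145). Csnk1e (0.43) and Fbxl21 (0.33) did not pass.

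**Figure D2:**
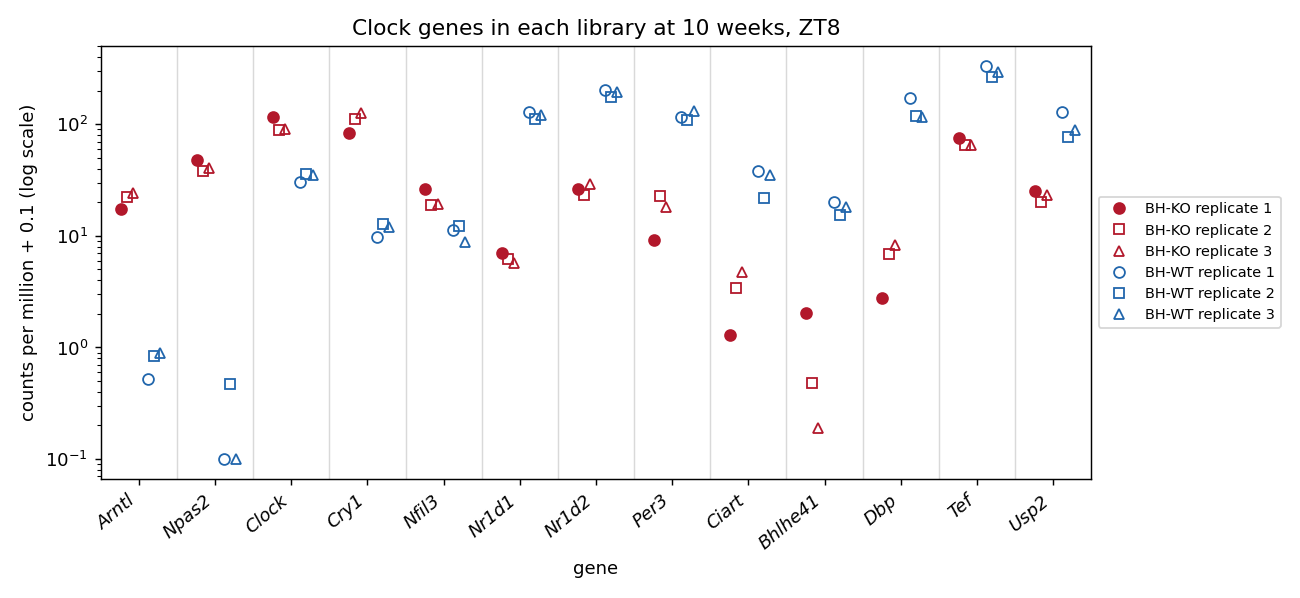
Levels of 13 clock genes (x axis) in each of the 6 libraries, in CPM + 0.1 on a log scale (y axis), with BH-KO in red left of BH-WT in blue and BH-KO replicate 1 filled. For each of these genes all 3 BH-KO libraries lie on the same side of all 3 BH-WT libraries, as for Nr1d1 with 5.64 to 6.98 CPM in BH-KO and 111 to 129 CPM in BH-WT.

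The clock differences were set against those of the line without the Arntl allele. The difference between the BH-KO and H-KO effects was tested as an interaction contrast in the same edgeR fit, and 846 of 13958 genes passed (6.06%, 525 with a higher and 321 with a lower effect in BH-KO; 3273 at an unadjusted p under 0.05). Of the 24 clock genes, 8 had a higher and 6 a lower effect in BH-KO by that test. Nr1d1 did not pass in H-KO (94.8 ± 22.6 CPM in H-KO and 103 ± 22 CPM in H-WT; -0.12, adjusted p = 0.775), with an interaction of -4.16 ± 0.41 (adjusted p = 8.47e-05). Dbp gave -3.90 ± 0.42 (adjusted p = 0.000203) and Cry1 gave 3.51 ± 0.54 (adjusted p = 0.00284). Usp2 fell in both lines (-2.18 in H-KO, adjusted p = 9.45e-05), and its interaction of 0.08 did not pass (adjusted p = 0.934). H-WT and BH-WT share no library, and H-WT replicate 3 has the female pattern.

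Over all genes, 3990 of 13958 tested genes passed (28.6%), of which 2000 rose and 1990 fell, 740 and 1053 of them at least 2-fold. Of the 4867 genes without overlap, 3352 also passed. Without BH-KO replicate 1 the count was 5916 of 14415 genes tested in that fit, with 3725 shared with the full comparison. On the 13958 genes of the full comparison it was 5799 (41.5%), with 2738 risen and 3061 fallen. List counts without replicate 1 are to be read beside these. Leaving out BH-KO replicate 2 gave 2330 genes, and leaving out replicate 3 gave 2416. With BH-KO and BH-WT fitted alone, where the spread comes from these 6 libraries, 1096 genes passed, and the clock list gave 6 rises and 9 falls.

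Among the 10 largest rises that passed with no overlap, several were uneven within BH-KO. Cdkn1a (ENSMUSG00000023067, chromosome 17, 29090976 to 29100727 on the plus strand), which encodes the cell cycle inhibitor p21, was at 95.7, 136 and 146 CPM in BH-KO replicates 1, 2 and 3, against 0.842, 1.23 and 0.959 CPM in BH-WT replicates 1, 2 and 3. All 3 BH-KO libraries were high, replicate 1 least (6.93 ± 0.43, edgeR adjusted p = 1.74e-07). Tox2, a chromatin protein, was at 12, 11.8 and 11 CPM in BH-KO replicates 1, 2 and 3, against 0.14, 0.613 and 0.16 CPM in BH-WT replicates 1, 2 and 3, with nearly equal BH-KO levels (5.12 ± 0.48, adjusted p = 5.05e-06). Nckap5 was at 7.28, 8.84 and 10.8 CPM in the BH-KO libraries and 0, 0.368 and 0.16 CPM in the BH-WT libraries (5.50 ± 0.61, adjusted p = 2.09e-05). Defb1, a defensin peptide, was at 8.47, 107 and 101 CPM in BH-KO replicates 1, 2 and 3, against 0.842, 0.613 and 0.32 CPM in BH-WT replicates 1, 2 and 3. Spon2, a secreted matrix protein, was at 31.9, 151 and 159.9 CPM in the BH-KO libraries and 3.79, 3.19 and 5.43 CPM in the BH-WT libraries. In both genes replicate 1 lay between BH-WT and the other BH-KO libraries (6.88 ± 0.94, adjusted p = 0.000224; 4.81 ± 0.54, adjusted p = 4.48e-05). Gria3, a glutamate receptor subunit (11.7, 57 and 61.4 CPM in the BH-KO libraries and 0.842, 1.59 and 1.28 CPM in the BH-WT libraries; 5.11 ± 0.65, adjusted p = 0.000116), and Cacna1h, a calcium channel subunit (2.08, 28.8 and 33.5 CPM in the BH-KO libraries and 0, 0.368 and 0.32 CPM in the BH-WT libraries; 6.47 ± 1.14, adjusted p = 0.00333), showed the same order. For Atp1b2, a sodium pump subunit, replicate 1 stood just above BH-WT, with 0.743, 94.6 and 42.8 CPM in the BH-KO libraries and 0.421, 0.368 and 0.639 CPM in the BH-WT libraries (6.59 ± 1.25, edgeR adjusted p = 0.00216). At levels this close to the floor (0.446 CPM in BH-KO replicate 1) that library is not told apart from BH-WT. The rise of Atp1b2 thus rests on replicates 2 and 3.

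The 10 largest falls included 4 Mup genes or pseudogenes and 2 Cyp3a genes. Slc2a5 (ENSMUSG00000028976, chromosome 4, 150119283 to 150144169 on the plus strand), a fructose transporter, was at 0.743, 0.0951 and 0.264 CPM in BH-KO replicates 1, 2 and 3, against 13.5, 15.4 and 14.1 CPM in BH-WT replicates 1, 2 and 3. Its 3 BH-KO libraries were near the floor (-5.41 ± 0.36, edgeR adjusted p = 1.74e-07). Fam47e gave 0.743, 0.19 and 0.264 CPM in the BH-KO libraries and 18.4, 11 and 12.5 CPM in the BH-WT libraries (-5.24 ± 0.50, adjusted p = 6.84e-06). Cyp3a44, a P450 enzyme more abundant in female mice, was at 1.04, 1.81 and 1.76 CPM in BH-KO replicates 1, 2 and 3, against 51.2, 676 and 124 CPM in BH-WT replicates 1, 2 and 3 (-7.47 ± 1.46, adjusted p = 0.00358). BH-WT replicate 2 was far above the other BH-WT libraries. Cyp3a41a moved likewise (1.34, 2.76 and 2.03 CPM in the BH-KO libraries and 8.98, 406 and 111 CPM in the BH-WT libraries; -6.38 ± 2.11, adjusted p = 0.0482, and 0.113 without BH-KO replicate 1). Mup16, a major urinary protein, showed the reverse in that library, at 0.594, 0.19 and 0.264 CPM in BH-KO replicates 1, 2 and 3, against 60, 2.33 and 49.2 CPM in BH-WT replicates 1, 2 and 3 (-6.80 ± 1.29, adjusted p = 0.00219). Mup17 (-6.64, adjusted p = 0.00803), Mup11 (-5.50, adjusted p = 0.00274) and the pseudogene Mup-ps13, with 3 counts in BH-KO and 242 in BH-WT, fell as well. The ratio for the last was 0.00934 (95% counting interval 0.00191 to 0.0276). Counts of near-identical Mup and Cyp3a genes may be split among copies and are uncertain. Cxcl13, a chemokine, was at 2.08, 0.19 and 0.793 CPM in the BH-KO libraries and 3.65, 87.8 and 37.6 CPM in the BH-WT libraries (-5.54 ± 1.70, adjusted p = 0.0267), and its highest level was in BH-WT replicate 2, which also had the most macrophage RNA as given below. Serpina4-ps1, a serpin pseudogene, was at 6.39, 0.285 and 0 CPM in the BH-KO libraries and 12.8, 67.8 and 104 CPM in the BH-WT libraries (-5.07 ± 1.23, adjusted p = 0.00892).

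Genes that change in the Hnf4a line give a yardstick for each BH-KO library, since H-KO and H-WT share no library with BH-KO or BH-WT. Their calls come from the fit over all 18 libraries, whose shared spread includes BH-KO and BH-WT. The gene sets are therefore not fully independent of the libraries they are set against. H-WT replicate 3, with the female pattern, is among the libraries behind them. In H-KO, 1365 genes fell at least 2-fold (9.78% of those tested) and 978 rose at least 2-fold (7.01%). In BH-KO replicates 2 and 3 the median log2 difference of the 1365 genes from the BH-WT mean was -1.53 and -1.52, and 87.3% of them lay below the BH-WT range in either library. In replicate 1 the median was -0.28, with 50.5% below that range, 28.1% within it and 21.4% above it. The 978 genes gave medians of 1.14 and 1.07 in replicates 2 and 3, with 80% and 77.8% above the BH-WT range. Replicate 1 gave 0.09, with 34.5% above. Over all tested genes 32.5% lay below and 32.9% above the BH-WT range in replicate 1. The 9087 genes that did not pass in H-KO had medians of 0.01, 0.06 and 0.06 in the 3 BH-KO libraries. Replicate 1 thus moved little in the genes that H-KO changed, although it lay on the same side of BH-WT as the other 2 libraries for 19 of the 21 clock genes where those 2 were outside the BH-WT range on 1 side. Of the other 2 clock genes, replicate 1 was within the range for 1 and on the opposite side for Rora. Over all tested genes replicates 2 and 3 lay outside on 1 side in 8791, where replicate 1 was with them in 4867, within the range in 2502 and on the opposite side in 1422.

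**Figure D3:**
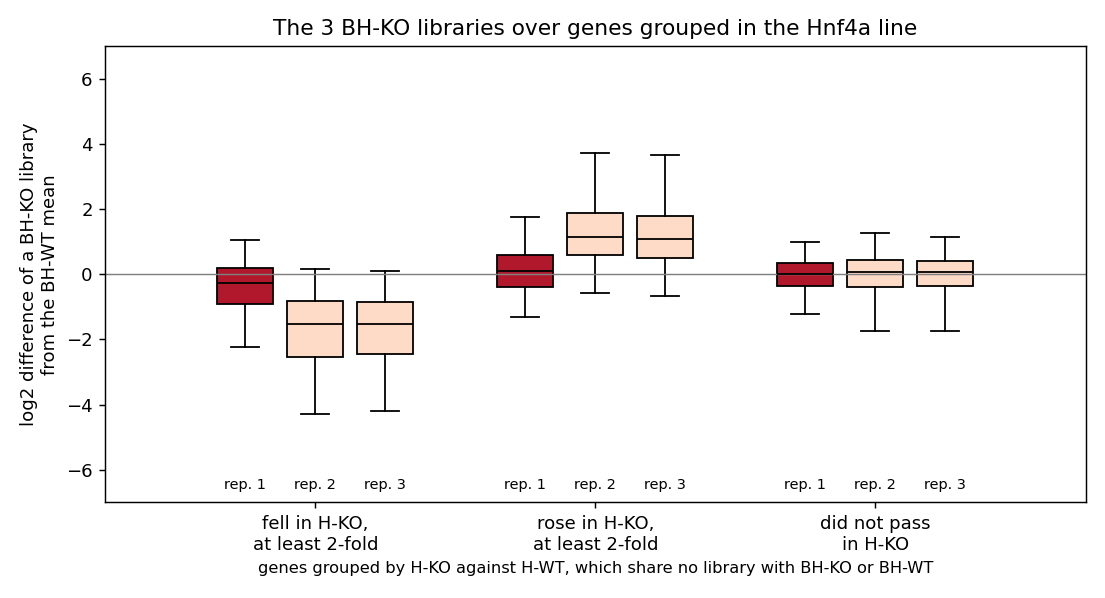
Log2 difference of each BH-KO library from the BH-WT mean (y axis) for genes grouped by H-KO against H-WT (x axis), with the box from the lower to the upper quartile, a line at the median, whiskers at the 5th and 95th percentiles, and BH-KO replicate 1 in dark red. For the 1365 genes that fell at least 2-fold in H-KO the medians are -0.28, -1.53 and -1.52 in BH-KO replicates 1, 2 and 3, and for the 978 that rose 0.09, 1.14 and 1.07.

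Most known HNF4A target genes lay below BH-WT in BH-KO replicates 2 and 3 but not in replicate 1. Of 44, 1 rose and 13 fell, with a median log2 fold change of -0.97. Without replicate 1, 1 rose and 32 fell, and 0 to 1 rose and 6 to 9 fell with 1 of the other 5 libraries left out. With BH-KO and BH-WT fitted alone, 0 rose and 2 fell, and 10 had an unadjusted p under 0.05. The median difference from BH-WT was -0.06 in replicate 1, -2.11 in replicate 2 and -1.90 in replicate 3, and 18, 40 and 36 of the 44 genes lay below the BH-WT range. Nr1i3, which encodes the xenobiotic receptor CAR, was at 12.5, 0.951 and 1.5 CPM in BH-KO replicates 1, 2 and 3, against 67.9, 27.8 and 63.3 CPM in BH-WT replicates 1, 2 and 3 (-3.56 ± 0.75, edgeR adjusted p = 0.00415). Replicate 1 lay below BH-WT and above the other BH-KO libraries. Ces3a, a carboxylesterase with a near-identical copy in Ces3b, was at 1117, 31.4 and 3.79 CPM in BH-KO replicates 1, 2 and 3, against 1142, 278 and 1458 CPM in BH-WT replicates 1, 2 and 3. Replicate 1 was inside the BH-WT range, and the gene did not pass (-1.32 ± 1.20, adjusted p = 0.431) until replicate 1 was left out (-5.78 ± 0.92, adjusted p = 0.000353). Ces3a was named for its wide span within BH-KO, much of which goes when replicate 1 is left out. Its p-value without that library rests on 2 BH-KO libraries and is favoured by that choice. The same holds below for Apoa2, C9, C8a, F13b, Hrg, Cyp2c37, Sult2a8, Baat, Igf1, Otc and Haao. Apoa1, the main protein of high-density lipoprotein, went the other way with 5705, 8833 and 4604 CPM in the BH-KO libraries and 4768, 1634 and 3794 CPM in the BH-WT libraries (0.91 ± 0.33, adjusted p = 0.0499). It did not pass without BH-KO replicate 2 or BH-WT replicates 2 or 3.

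Lipoprotein genes followed that split. Of 29 genes of apolipoproteins and lipoprotein assembly, 2 rose and 7 fell, with a median of -0.63, and 3 rose and 16 fell without replicate 1 (0 to 2 rose and 3 to 5 fell without 1 of the other 5). With BH-KO and BH-WT fitted alone 0 passed by edgeR (8 at an unadjusted p under 0.05). Apoa2, another protein of high-density lipoprotein, was at 7293, 323 and 348 CPM in BH-KO replicates 1, 2 and 3, against 4822, 3251 and 4424 CPM in BH-WT replicates 1, 2 and 3. Replicate 1 exceeded all BH-WT libraries while replicates 2 and 3 lay far below them (-0.65 ± 0.81, edgeR adjusted p = 0.57; -3.64 ± 0.24, adjusted p = 9.91e-09 without replicate 1). Apob, chosen after its values were seen, carries very-low-density lipoprotein and was at 9644, 1158 and 1294 CPM in BH-KO replicates 1, 2 and 3, against 7187, 8804 and 7943 CPM in BH-WT replicates 1, 2 and 3 (-2.70 ± 0.23, adjusted p = 1.33e-07 without replicate 1). Its replicate 1 lay above all BH-WT libraries. That p-value rests on BH-KO replicates 2 and 3 alone and is favoured by the choice of gene and of libraries. Lipc, hepatic lipase, showed the same order, with 249, 14.4 and 21.9 CPM in the BH-KO libraries and 165, 124 and 148 CPM in the BH-WT libraries. Apom fell in the full comparison, with 85.2, 17.2 and 25.6 CPM in the BH-KO libraries and 238, 181 and 200.4 CPM in the BH-WT libraries (-2.29 ± 0.44, adjusted p = 0.00217). Scarb1, the receptor for high-density lipoprotein, rose, with 171, 311 and 348 CPM in the BH-KO libraries and 159, 189.5 and 140.0 CPM in the BH-WT libraries (0.77 ± 0.23, adjusted p = 0.022).

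Complement and clotting genes had a wide gap between replicate 1 and the others. Of 28 complement genes 0 rose and 9 fell, and 0 rose and 24 fell without replicate 1 (2 to 8 fell without 1 of the other 5). With BH-KO and BH-WT fitted alone 0 passed by edgeR (7 at an unadjusted p under 0.05). C1qa and C1qc, which macrophages make and which are also in the macrophage list below, had the largest falls that passed. C1qa was at 15.2, 5.13 and 5.46 CPM in the BH-KO libraries and 17, 98.8 and 52.4 CPM in the BH-WT libraries (-2.76 ± 0.77, adjusted p = 0.0175), and C1qc at 14.4, 3.52 and 6.7 CPM in the BH-KO libraries and 16.7, 109 and 54.7 CPM in the BH-WT libraries (-2.92 ± 0.81, adjusted p = 0.0166). BH-WT replicate 1 was far below the other BH-WT libraries for both, as for other macrophage markers, whose part in this list's count was not tested. Medians were 0.13, -2.08 and -2.20 in the 3 BH-KO libraries. C9, part of the membrane attack complex, was at 1229, 36.4 and 18.8 CPM in BH-KO replicates 1, 2 and 3, against 421, 236 and 432 CPM in BH-WT replicates 1, 2 and 3. C8a, of the same complex, was at 1042, 41.1 and 49.7 CPM in BH-KO replicates 1, 2 and 3, against 870.1, 613 and 979 CPM in BH-WT replicates 1, 2 and 3. For both, replicate 1 lay above the BH-WT range and replicates 2 and 3 below it by many fold, and neither passed (0.24 ± 1.0, edgeR adjusted p = 0.88; -1.12 ± 0.89, adjusted p = 0.361). Without replicate 1 the log2 fold changes were -3.72 ± 0.39 (adjusted p = 3.38e-06) and -4.18 ± 0.46 (adjusted p = 7.45e-06). Of 31 clotting and fibrinolysis genes, 0 rose and 4 fell, and without replicate 1, 1 rose and 18 fell (2 to 3 fell without 1 of the other 5). The 4 falls in the full comparison are near the 14.3% of all tested genes that fell. F13b, a clotting factor subunit, was at 346, 20.7 and 28.7 CPM in the BH-KO libraries and 311, 271 and 329 CPM in the BH-WT libraries, and Hrg, a histidine-rich plasma protein, at 1755, 99.5 and 82.2 CPM in the BH-KO libraries and 1878, 1400 and 1554 CPM in the BH-WT libraries. Neither passed in the full comparison (adjusted p = 0.223 and 0.229), and both did without replicate 1 (-3.62 ± 0.20, adjusted p = 1.63e-09; -4.15 ± 0.26, adjusted p = 5.69e-09). Among 28 acute phase genes, 1 rose and 2 fell, and 9 fell without replicate 1 (0 to 1 rose and 0 to 2 fell without 1 of the other 5). Cp, which encodes the copper carrier ceruloplasmin, was the riser (5390, 3959 and 3696 CPM in the BH-KO libraries and 2057, 2813 and 2123 CPM in the BH-WT libraries; 0.90 ± 0.27, adjusted p = 0.0221) and did not pass without BH-WT replicate 1 or 3, and Saa4 and Serpina3m were the fallers.

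Of 48 cytochrome P450 genes, 4 rose and 14 fell, and 4 rose and 28 fell without replicate 1 (1 to 3 rose and 6 to 9 fell without 1 of the other 5). Their medians were 0.17 in replicate 1, -2.66 in replicate 2 and -2.95 in replicate 3. Cyp2c37, which acts on arachidonic acid, was at 669, 24.5 and 6.35 CPM in BH-KO replicates 1, 2 and 3, against 702, 375 and 404 CPM in BH-WT replicates 1, 2 and 3. Replicate 1 lay within the BH-WT range, and the difference passed without it (-5.01 ± 0.77, edgeR adjusted p = 0.000276; -1.09, adjusted p = 0.475 with it). Cyp2c55, another member, rose in all 3 BH-KO libraries and most in replicate 1, with 120.0, 10.2 and 12.2 CPM in the BH-KO libraries and 3.37, 1.47 and 4.79 CPM in the BH-WT libraries (3.89 ± 0.87, adjusted p = 0.00576). Cyp2b10, a target of CAR, rose as well, to 35.9, 60.8 and 48.4 CPM against 15.2, 5.76 and 22.7 CPM (1.75 ± 0.55, adjusted p = 0.0298), while Nr1i3, the gene of CAR, fell. Conjugation enzymes gave 5 rises and 4 falls of 26, and 13 falls without replicate 1 (2 to 5 rises and 3 to 4 falls without 1 of the other 5). The 5 rises and 4 falls are near the 14.3% of all tested genes in each direction. Sult1e1, estrogen sulfotransferase, was at 0.148, 169.9 and 56.3 CPM in BH-KO replicates 1, 2 and 3, against 0.281, 0.123 and 0.16 CPM in BH-WT replicates 1, 2 and 3 (8.56 ± 1.79, adjusted p = 0.00391). Replicate 1 was at the floor with BH-WT. Sult2a8, a bile acid sulfotransferase in mice, was at 867, 22.6 and 7.93 CPM in the BH-KO libraries and 784, 235 and 928 CPM in the BH-WT libraries, again with replicate 1 inside the BH-WT range (-5.41 ± 0.69, adjusted p = 4.81e-05 without it).

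Bile acid synthesis and conjugation had 0 rises and 4 falls of 14 genes, and 0 and 7 without replicate 1 (1 to 3 falls without 1 of the other 5). With BH-KO and BH-WT fitted alone 0 passed by edgeR (4 at an unadjusted p under 0.05). Slc27a5, which activates bile acids for conjugation, was at 485, 40.3 and 34.8 CPM in BH-KO replicates 1, 2 and 3, against 856, 703 and 829 CPM in BH-WT replicates 1, 2 and 3 (-2.09 ± 0.72, edgeR adjusted p = 0.0427). Baat, which joins them to taurine, was at 255, 13.6 and 14.7 CPM in BH-KO replicates 1, 2 and 3, against 287, 225 and 304 CPM in BH-WT replicates 1, 2 and 3. Replicate 1 was within BH-WT for Baat and below it for Slc27a5. Baat, named for its wide span, passed with only BH-KO replicates 2 and 3 left (-4.26 ± 0.16, edgeR adjusted p = 3.3e-11). Cyp8b1, whose product sets the share of cholic acid and whose promoter is shown above, was at 24.6, 10.5 and 13.1 CPM in the BH-KO libraries and 83.5, 22.6 and 71.8 CPM in the BH-WT libraries (-1.90 ± 0.65, adjusted p = 0.0425). Of 18 bile acid and organic ion transporters, 2 rose and 4 fell, and 10 fell without replicate 1 (2 to 4 without 1 of the other 5). Slco1a4, an uptake carrier, rose in all 3 BH-KO libraries (538, 677 and 656 CPM in the BH-KO libraries and 180.4, 81.3 and 124 CPM in the BH-WT libraries; 2.28 ± 0.47, adjusted p = 0.00342), as did the bile salt export pump Abcb11 (731, 916 and 1398 CPM in the BH-KO libraries and 469.8, 639.5 and 539.8 CPM in the BH-WT libraries; 0.88 ± 0.24, adjusted p = 0.0141). Slc47a1, an exporter of organic cations, fell (50.5, 10.2 and 14.8 CPM in the BH-KO libraries and 189.6, 185 and 205 CPM in the BH-WT libraries; -2.96 ± 0.43, adjusted p = 0.000315).

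**Figure D4:**
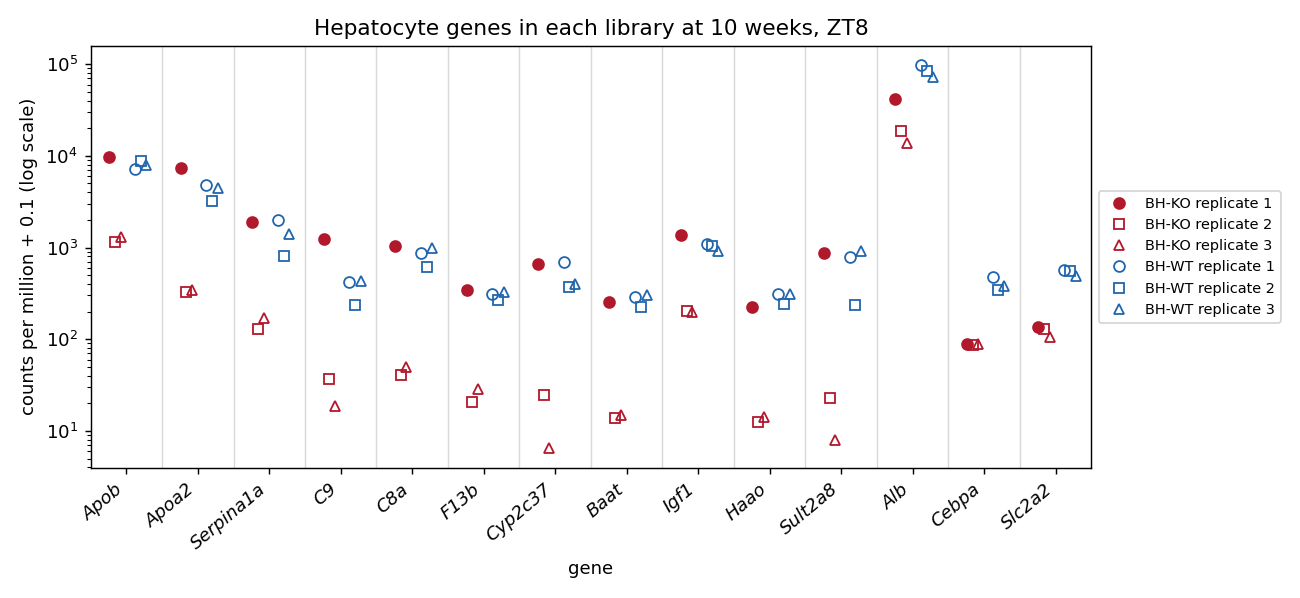
Levels of 14 hepatocyte genes (x axis) in each of the 6 libraries, in CPM + 0.1 on a log scale (y axis), with BH-KO in red left of BH-WT in blue and BH-KO replicate 1 filled. Apob and Slc2a2 were chosen after their values were seen, and the other genes up to Sult2a8 for their wide span within BH-KO. The pattern of the first 11 genes thus follows in part from the choice and does not stand for all hepatocyte genes. For these 11 BH-KO replicate 1 lies at or above BH-WT or just below it while replicates 2 and 3 lie far below. For Alb, Cebpa and Slc2a2 all 3 BH-KO libraries lie below BH-WT.

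Of 15 defining hepatocyte markers, Apoa1 rose and Alb fell, and 9 fell without replicate 1 (0 to 1 rose without 1 of the other 5). Alb, the albumin gene and the site of the Cre allele, fell in all 3 BH-KO libraries, with 42220, 18840 and 13810 CPM in BH-KO replicates 1, 2 and 3, against 97680, 84830 and 73170 CPM in BH-WT replicates 1, 2 and 3 (-1.77 ± 0.37, edgeR adjusted p = 0.00274). Serpina1a, an alpha-1 antitrypsin gene with close copies, was at 1897, 128 and 172 CPM in the BH-KO libraries and 2001, 818 and 1388 CPM in the BH-WT libraries. Of 21 liver-enriched transcription factors, 2 rose and 9 fell, and 3 rose and 11 fell without replicate 1 (5 to 8 fell without 1 of the other 5). With BH-KO and BH-WT fitted alone, 2 rose and 2 fell by edgeR (12 at an unadjusted p under 0.05). Cebpa (ENSMUSG00000034957, chromosome 7, 35119293 to 35121928 on the plus strand), a regulator of hepatocyte metabolism, was at 87.9, 85.7 and 87.7 CPM in BH-KO replicates 1, 2 and 3, against 480.4, 341 and 381 CPM in BH-WT replicates 1, 2 and 3. The 3 BH-KO libraries were nearly equal and far below BH-WT (-2.20 ± 0.13, adjusted p = 7.26e-08). Foxa1, a forkhead factor of liver development, rose, with 57, 33.8 and 35.9 CPM in the BH-KO libraries and 22.4, 16.2 and 26.2 CPM in the BH-WT libraries (0.96 ± 0.27, adjusted p = 0.0155).

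**Figure D5:**
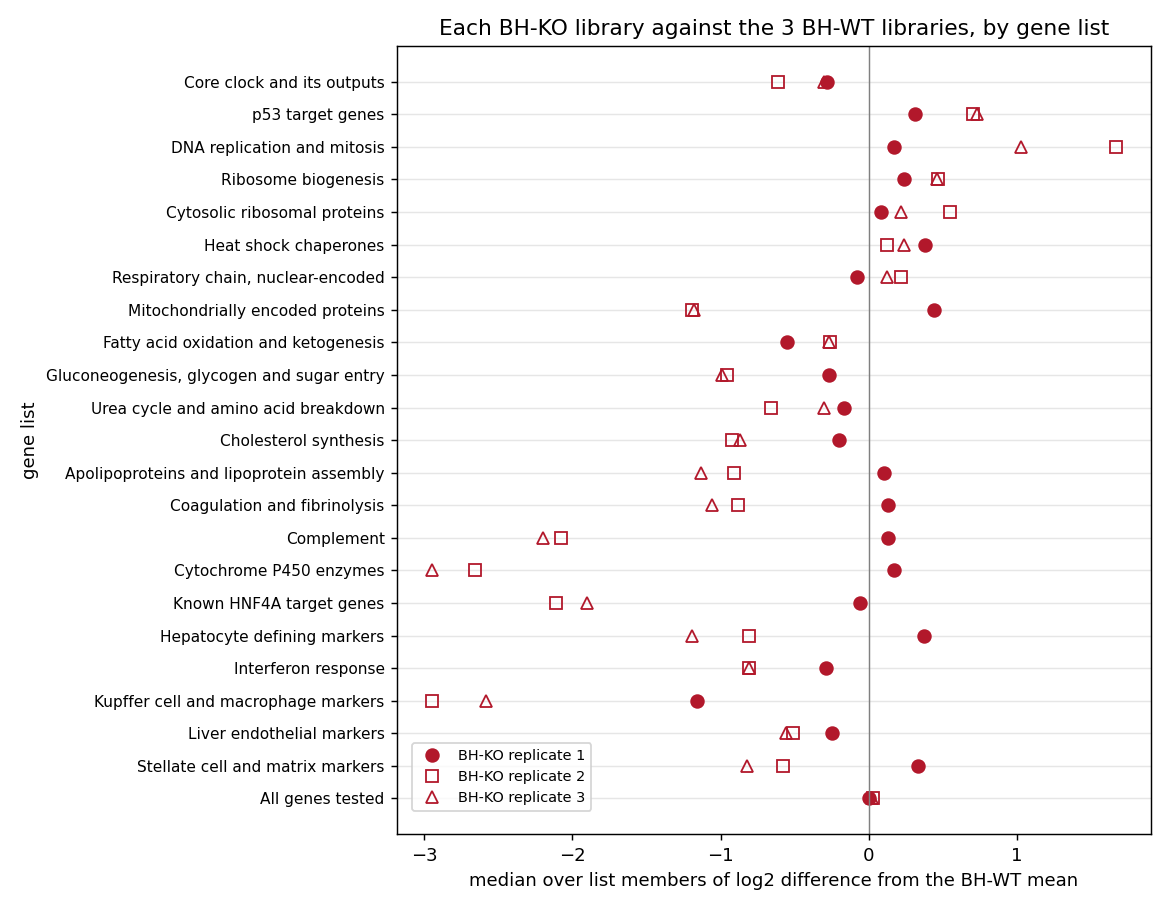
Median over the tested members of each gene list (y axis) of the log2 difference of a BH-KO library from the BH-WT mean (x axis), with BH-KO replicate 1 filled. Replicate 1 lies near 0 for the complement, P450, HNF4A target and clotting lists (0.13, 0.17, -0.06 and 0.13) where replicates 2 and 3 lie between -0.88 and -2.95, and the last line gives all 13958 genes tested.

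The genes with the largest span within BH-KO, among those with at least 10 CPM on average there, set replicate 1 against the other 2. Sult1e1 spanned 8.76 on the log2 scale, Ces3a 8.11, Pnliprp1 8.06, Cyp2c54 7.71 and Hsd3b5 7.49. Pnliprp1, a pancreatic lipase relative, had no count in replicate 1 or in BH-WT, but 64.8 and 45.4 CPM in replicates 2 and 3, at least 300.3-fold higher in BH-KO as a group, set against 3 counts over the 3 BH-WT libraries together (edgeR adjusted p = 0.0149). Epdr1, a lysosomal ependymin relative, behaved alike (0.297, 30.1 and 33.7 CPM in the BH-KO libraries and 0.702, 0.123 and 0.16 CPM in the BH-WT libraries; 5.99 ± 1.15, adjusted p = 0.00227). Hsd3b5, a male-specific steroid enzyme of mouse liver, was at 59.3, 1.05 and 0.0881 CPM in BH-KO replicates 1, 2 and 3, against 3.37, 0.368 and 1.44 CPM in BH-WT replicates 1, 2 and 3. Elovl3, a fatty acid elongase, was at 171, 6.75 and 1.06 CPM in BH-KO replicates 1, 2 and 3, against 2.95, 0 and 4.32 CPM in BH-WT replicates 1, 2 and 3. Replicate 1 was far above all other libraries for both, and Elovl3, which passed with a rise (4.66 ± 1.47, adjusted p = 0.0301), gave 0.75 without replicate 1 (adjusted p = 0.606). Replicates 2 and 3 differed much less. The largest gaps of replicate 2 to the nearer of the other 2 libraries were 1.86 on the log2 scale for Fam25c, on the high side, and -3.11 for the kinase subunit Camk2b, on the low side. Those of replicate 3 were 3.50 for Camk2b and -2.97 for Ces3a, and those of replicate 1 were 5.53 for Hsd3b5 and -7.55 for Pnliprp1. Camk2b was at 2.67, 0.0951 and 32.7 CPM in the BH-KO libraries and 8.7, 18.4 and 9.43 CPM in the BH-WT libraries, and the early response gene Egr1, low in replicate 3, at 289.8, 251 and 39.3 CPM in the BH-KO libraries and 26.5, 11 and 118 CPM in the BH-WT libraries; neither passed.

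Many sugar and glycogen genes changed in all 3 BH-KO libraries, though by the list's median replicate 1 moved less. The medians were -0.27, -0.96 and -0.99 in BH-KO replicates 1, 2 and 3, with 16, 18 and 19 genes below the BH-WT range. Of 29 genes of gluconeogenesis, glycogen and sugar entry, 6 rose and 14 fell, with a median of -0.80, and 6 rose and 16 fell without replicate 1 (5 to 6 rose and 10 to 13 fell without 1 of the other 5). Gys2, liver glycogen synthase, was at 67.1, 27.7 and 18.5 CPM in BH-KO replicates 1, 2 and 3, against 429.6, 329 and 323 CPM in BH-WT replicates 1, 2 and 3 (-3.26 ± 0.38, edgeR adjusted p = 4.48e-05). Ppp1r3b, which targets a phosphatase to glycogen, was at 581, 472 and 465 CPM in BH-KO replicates 1, 2 and 3, against 75.1, 82.1 and 122 CPM in BH-WT replicates 1, 2 and 3 (2.44 ± 0.47, adjusted p = 0.0022). Its relative Ppp1r3c was at 137, 172 and 208 CPM in the BH-KO libraries and 40.8, 39.8 and 35.2 CPM in the BH-WT libraries (2.16 ± 0.35, adjusted p = 0.000672). In none of these 3 did the groups overlap, and Gys2 was least reduced in replicate 1. Pcx, pyruvate carboxylase, fell (248, 40 and 49.1 CPM in the BH-KO libraries and 464, 472 and 438 CPM in the BH-WT libraries; -2.03 ± 0.49, adjusted p = 0.0083). Slc2a2, the main glucose transporter of hepatocytes, chosen after its values were seen, was at 134, 129 and 106 CPM in the BH-KO libraries and 566, 557 and 484 CPM in the BH-WT libraries (-2.12 ± 0.19, adjusted p = 4.54e-06). Of 26 hypoxia and glycolysis genes, 4 rose and 5 fell (1 to 2 rose and 4 to 5 fell without 1 library other than BH-KO replicate 1), near the 14.3% of all tested genes in each direction. Ndrg1, a gene of the response to low oxygen, was at 99.4, 206 and 156 CPM in BH-KO replicates 1, 2 and 3, against 6.88, 7.72 and 6.07 CPM in BH-WT replicates 1, 2 and 3 (4.47 ± 0.40, adjusted p = 6.09e-06). It did not pass in H-KO (6.65 ± 1.99 CPM in H-KO and 11.2 ± 5.51 CPM in H-WT; -0.75, adjusted p = 0.15).

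In fatty acid oxidation replicate 1 was, by its median, no closer to BH-WT than the others. Of 33 genes, 2 rose and 14 fell (11 to 12 fell without 1 of the other 5, and 5 rose and 14 fell without replicate 1). The medians were -0.55, -0.26 and -0.27 in BH-KO replicates 1, 2 and 3, with 25, 18 and 18 genes below the BH-WT range. Ppara, the receptor that activates this pathway, was at 72.3, 18.6 and 21.7 CPM in BH-KO replicates 1, 2 and 3, against 155, 161 and 177 CPM in BH-WT replicates 1, 2 and 3 (-2.14 ± 0.39, edgeR adjusted p = 0.00138). Bdh1, a ketone body enzyme, was at 229.5, 24.7 and 26.7 CPM in the BH-KO libraries and 367, 335 and 353 CPM in the BH-WT libraries (-1.92 ± 0.63, adjusted p = 0.036). Both were reduced in every BH-KO library and least in replicate 1. Pdk4, a kinase that holds pyruvate out of the citrate cycle, rose, with 10.5, 110.2 and 77.6 CPM in the BH-KO libraries and 3.37, 3.06 and 1.12 CPM in the BH-WT libraries (4.69 ± 0.77, adjusted p = 0.000814). Acot1, a thioesterase, was at 12.5, 172 and 199.8 CPM in the BH-KO libraries and 24.1, 33.8 and 13.3 CPM in the BH-WT libraries, where replicate 1 lay below the BH-WT range (2.43 ± 0.74, adjusted p = 0.0263). Of 23 fat synthesis genes 1 rose and 7 fell, and 10 fell without replicate 1 (6 to 7 without 1 of the other 5). Thrsp, a lipogenic regulator, was at 33.6, 72.8 and 53.6 CPM in BH-KO replicates 1, 2 and 3, against 479, 466 and 694 CPM in BH-WT replicates 1, 2 and 3 (-3.36 ± 0.40, adjusted p = 4.05e-05), with replicate 1 the lowest. Of 25 cholesterol synthesis genes, 0 rose and 9 fell (4 to 13 without 1 of the other 5, the lowest without BH-KO replicate 3), among them Stard4, a sterol carrier (91.9, 28.6 and 48.4 CPM in the BH-KO libraries and 249, 171 and 246 CPM in the BH-WT libraries; -1.98 ± 0.35, adjusted p = 0.00112). Fitm1, a lipid droplet protein, fell to 1.78, 0.475 and 0.353 CPM in BH-KO, against 10.1, 6.13 and 16.5 CPM in BH-WT (-3.78 ± 0.67, adjusted p = 0.00113). Of 30 genes of lipid droplets and fatty acid uptake 6 rose and 11 fell (4 to 6 fell without 1 of the other 5).

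Among 33 urea cycle genes and genes that break down amino acids, 1 rose and 12 fell, and 2 rose and 16 fell without replicate 1 (7 to 8 fell without 1 of the other 5). Asl, which makes arginine, was at 223, 172 and 182 CPM in BH-KO replicates 1, 2 and 3, against 563, 681 and 530.2 CPM in BH-WT replicates 1, 2 and 3. Its 3 BH-KO libraries lay together below BH-WT (-1.62 ± 0.16, edgeR adjusted p = 8.8e-06). Glud1, glutamate dehydrogenase, was the riser (1472, 2781 and 2332 CPM in the BH-KO libraries and 1049, 1126 and 1005 CPM in the BH-WT libraries; 1.05 ± 0.22, adjusted p = 0.00282). Otc and Haao, enzymes of the urea cycle and of tryptophan breakdown, did not pass (adjusted p = 0.122 and 0.0988). Otc was at 346, 19.7 and 29.7 CPM in the BH-KO libraries and 468, 285 and 454 CPM in the BH-WT libraries, and passed without replicate 1 (-4.03 ± 0.32, adjusted p = 1.01e-07). Haao was at 225, 12.4 and 14 CPM in the BH-KO libraries and 311, 243 and 311 CPM in the BH-WT libraries (-4.45 ± 0.21, adjusted p = 3.66e-10 without replicate 1). Of 24 genes of methionine and one-carbon metabolism, 3 rose and 7 fell (3 to 7 fell without 1 of the other 5). Shmt2, a mitochondrial serine enzyme, fell (117, 21.5 and 26.1 CPM in the BH-KO libraries and 202, 148 and 194 CPM in the BH-WT libraries; -1.73 ± 0.46, adjusted p = 0.013).

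Of 16 major urinary protein genes 0 rose and 8 fell (5 to 11 without 1 library), with a median of -4.82, but their summed level in BH-WT replicate 2 was 1163 CPM, against 8782 and 9045 CPM in BH-WT replicates 1 and 3. In BH-KO the sums were 6174, 180.1 and 100.1 CPM. Replicate 1 lay between the BH-WT libraries, and replicates 2 and 3 below all of them. Of 21 genes of the growth hormone and IGF axis, 3 rose and 4 fell, and 10 fell without replicate 1 (2 to 4 without 1 of the other 5). The counts of 3 and 4 are near the 14.3% of all tested genes in each direction. Igf1, the growth factor made by hepatocytes, was at 1364, 202 and 196 CPM in BH-KO replicates 1, 2 and 3, against 1080, 1046 and 927 CPM in BH-WT replicates 1, 2 and 3 and did not pass (-0.79 ± 0.54, edgeR adjusted p = 0.284), but did without replicate 1 (-2.36 ± 0.23, adjusted p = 7.36e-07). Igfbp2, a binding protein for it, rose (319.6, 2085 and 1833 CPM in the BH-KO libraries and 490.1, 211 and 211 CPM in the BH-WT libraries; 2.22 ± 0.58, adjusted p = 0.0123), with replicate 1 inside the BH-WT range. Igfbp1 rose in all 3 BH-KO libraries (65.8, 58.2 and 75.9 CPM in the BH-KO libraries and 21.2, 30.6 and 9.59 CPM in the BH-WT libraries; 1.69 ± 0.51, adjusted p = 0.0254). Glutathione transferases and NRF2 targets gave 9 rises and 5 falls of 31 (8 rises and 1 to 4 falls without 1 of the other 5). Gstm3, a glutathione transferase, was at 319.6, 1178 and 997 CPM in BH-KO replicates 1, 2 and 3, against 34.8, 28.3 and 39.5 CPM in BH-WT replicates 1, 2 and 3 (4.6 ± 0.48, adjusted p = 1.91e-05), and Gstm2 at 261, 962 and 1029 CPM in the BH-KO libraries and 42.4, 50.6 and 57.1 CPM in the BH-WT libraries (3.91 ± 0.44, adjusted p = 4.05e-05). Replicate 1 lay between BH-WT and replicates 2 and 3 in both.

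By zone of the lobule, 3 of 24 pericentral genes rose and 4 fell (2 to 3 fell without 1 of the other 5), while 1 rose and 17 fell in H-KO. Over all tested genes 15.8% rose and 19.1% fell in H-KO, and the BH-KO counts of 3 and 4 are near the 14.3% of all genes in each direction. The interaction was higher in BH-KO for 11 and lower for 1 of the 24. Their median in BH-KO was -0.05, and 0.01 with upper-quartile scaling. Slc1a4, a neutral amino acid carrier, was at 35, 106 and 133 CPM in BH-KO replicates 1, 2 and 3, against 6.45, 8.7 and 6.23 CPM in BH-WT replicates 1, 2 and 3 (3.68 ± 0.42, edgeR adjusted p = 4.69e-05). Lgr5, a receptor of the Wnt pathway, was at 17.1, 29.1 and 29.7 CPM in the BH-KO libraries and 9.82, 6.5 and 7.19 CPM in the BH-WT libraries (1.70 ± 0.29, adjusted p = 0.000647), whereas it fell in H-KO (-0.82, adjusted p = 0.0395). Cyp2a5, a coumarin-oxidizing P450, fell (235, 73.2 and 42.6 CPM in the BH-KO libraries and 1173, 943 and 1022 CPM in the BH-WT libraries; -3.16 ± 0.56, adjusted p = 0.00109). Of 24 periportal genes 0 rose and 7 fell, and 11 fell without replicate 1 (5 to 7 without 1 of the other 5), including the urate enzyme Uox (815, 251 and 282 CPM in the BH-KO libraries and 2278, 1833 and 1858 CPM in the BH-WT libraries; -2.15 ± 0.36, adjusted p = 0.000574).

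More target genes of p53 rose than fell. Of 30, 18 rose and 4 fell, with a median of 0.75 against 0.03 for all genes tested. Without replicate 1, 19 rose and 5 fell, and 14 to 17 rose without 1 of the other 5 libraries. The medians of the BH-KO libraries were 0.31, 0.70 and 0.73. Cdkn1a led them. Psrc1, a spindle protein, was at 0.594, 7.51 and 5.11 CPM in the BH-KO libraries and 0.14, 0.245 and 0.32 CPM in the BH-WT libraries (4.19 ± 0.83, edgeR adjusted p = 0.00201). Mdm2, which degrades p53, and Ccng1, a cyclin, were chosen after their values were seen and lay above BH-WT in each BH-KO library. Mdm2 was at 65.8, 66.5 and 60.9 CPM in the BH-KO libraries and 34.7, 37.5 and 40.6 CPM in the BH-WT libraries (0.78 ± 0.11, adjusted p = 0.000156), and Ccng1 at 84.7, 72.4 and 76.5 CPM in the BH-KO libraries and 41.8, 49.3 and 47.8 CPM in the BH-WT libraries (0.75 ± 0.12, adjusted p = 0.000373). Perp, a junction protein of that list, fell (67, 8.37 and 15.5 CPM in the BH-KO libraries and 127, 165 and 149.8 CPM in the BH-WT libraries; -2.31 ± 0.53, adjusted p = 0.00646), as did Plk3, a polo-like kinase (-2.10, adjusted p = 0.0127). In H-KO 12 of the 30 rose and 4 fell. Cdkn1a rose there as well (22.2 ± 5.04 CPM in H-KO and 1.14 ± 0.259 CPM in H-WT; 4.26, adjusted p = 1.15e-05). Its interaction was 2.66 ± 0.68 (adjusted p = 0.0331, and 0.00177 to 0.105 over the alternatives).

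Genes of DNA replication and mitosis were at low levels, and 15 of 40 rose and 1 fell, or 25 and 1 without replicate 1. Leaving out BH-KO replicate 2 gave 3 rises, and leaving out 1 of the other 4 libraries gave 8 to 9. Their medians were 0.17, 1.67 and 1.03 in the 3 BH-KO libraries. Cenpf, a kinetochore protein, was at 1.04, 4.37 and 3 CPM in the BH-KO libraries and 0.421, 0.613 and 0.32 CPM in the BH-WT libraries (2.6 ± 0.73, edgeR adjusted p = 0.0163). Mcm10 (ENSMUSG00000026669, chromosome 2, 4989714 to 5012791 on the minus strand), a replication factor, was the 1 that fell, with 6.09, 4.85 and 4.58 CPM in BH-KO replicates 1, 2 and 3, against 102, 81.9 and 99.9 CPM in BH-WT replicates 1, 2 and 3 (-4.21 ± 0.24, adjusted p = 5.26e-08). Its BH-KO libraries lay close together, and it fell in H-KO also (17.8 ± 2.48 CPM in H-KO and 96.2 ± 25.8 CPM in H-WT, -2.43, adjusted p = 4.06e-06). Of 73 cytosolic ribosomal protein genes, 23 rose and 0 fell, with medians of 0.08, 0.55 and 0.22. Without replicate 1, 37 rose, and 7 to 18 rose without 1 of the other 5. These genes have many processed copies, which makes their counts uncertain. Of 34 ribosome biogenesis genes, 17 rose and 0 fell (13 to 18 rose without 1 library), with medians of 0.24, 0.47 and 0.46. Nop58, a nucleolar protein, was at 47.8, 69.8 and 74.1 CPM in the BH-KO libraries and 28.8, 29.5 and 27.3 CPM in the BH-WT libraries (1.16 ± 0.16, adjusted p = 0.000135).

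Heat shock chaperones gave 5 rises and 1 fall of 21 (2 to 5 rises without 1 library), while 1 rose and 11 fell in H-KO, and the interaction was higher in BH-KO for 7 of them. Hsp90aa1, a cytosolic chaperone, was at 147, 144 and 161 CPM in BH-KO replicates 1, 2 and 3, against 79, 86.3 and 105 CPM in BH-WT replicates 1, 2 and 3 (0.74 ± 0.13, edgeR adjusted p = 0.000817). All BH-KO libraries lay above BH-WT, replicate 1 among them. In H-KO it fell (102 ± 6.51 CPM in H-KO and 157 ± 15.5 CPM in H-WT, -0.62, adjusted p = 0.00174). Bag3, a co-chaperone, rose (38.8, 35.3 and 36.8 CPM in the BH-KO libraries and 21.3, 23.4 and 29.6 CPM in the BH-WT libraries; 0.58 ± 0.16, adjusted p = 0.0151). Among 28 genes of the unfolded protein response, 2 rose and 1 fell, and among 31 proteasome genes 2 rose and 2 fell. Of 10 mitochondrially encoded protein genes, 0 passed by edgeR's test, 0 had an unadjusted p under 0.05 and 0 passed by DESeq2. Without replicate 1, 8 fell, and the medians of the 3 BH-KO libraries were 0.44, -1.19 and -1.18. mt-Nd2, a subunit of complex I, was at 17200, 3047 and 3175 CPM in the BH-KO libraries and 9781, 10790 and 9450 CPM in the BH-WT libraries. Of 53 nuclear genes of the respiratory chain, 5 rose and 1 fell (1 to 7 rose without 1 library).

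Macrophage genes were lower in BH-KO, and the level of this cell type also differed among the BH-WT livers. Of 29 markers of Kupffer cells and macrophages, 1 rose and 16 fell, with a median of -2.41, and 1 rose and 22 fell without BH-KO replicate 1. Leaving out BH-KO replicates 2 and 3 in turn gave 5 and 8 falls, and leaving out BH-WT replicates 1, 2 and 3 in turn gave 17, 7 and 12. With BH-KO and BH-WT fitted alone 1 rose and 1 fell. Their summed level was 895, 446.9 and 516 CPM in BH-KO, against 695.8, 2649 and 1601 CPM in BH-WT, so the sums overlapped. Cd5l, a protein secreted by Kupffer cells, was at 25.8, 10.1 and 15.5 CPM in BH-KO replicates 1, 2 and 3, against 45.2, 265 and 164 CPM in BH-WT replicates 1, 2 and 3 (-3.22 ± 0.82, edgeR adjusted p = 0.0114). Adgre1, the F4/80 antigen, was at 6.39, 1.9 and 1.76 CPM in BH-KO replicates 1, 2 and 3, against 6.74, 45.1 and 28.8 CPM in BH-WT replicates 1, 2 and 3 (-3.08 ± 0.96, adjusted p = 0.0285). For both, BH-WT replicate 1 was far below the other BH-WT libraries and close to BH-KO replicate 1. Fewer cells of a type and less RNA per cell cannot be told apart in bulk RNA. In H-KO 1 of the 29 rose and 0 fell, and the interaction passed for 0 of them by edgeR (11 at an unadjusted p under 0.05, 3 by DESeq2). Spp1, osteopontin, which bile duct cells and stressed hepatocytes also make, was the riser (66.5, 216 and 269.9 CPM in the BH-KO libraries and 34.4, 41.4 and 29.6 CPM in the BH-WT libraries; 2.39 ± 0.48, adjusted p = 0.00289). Ly6c2, with 7 counts in BH-KO and 31 in BH-WT, was the 1 gene of the list with too few counts to be tested.

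Fewer markers of other non-parenchymal cells passed. Of 7 neutrophil markers 0 rose and 2 fell, of 27 endothelial markers 0 rose and 5 fell, and of 32 stellate cell and matrix markers 0 rose and 4 fell. These falls numbered 4, 7 and 9 without BH-KO replicate 1, where 3061 of all 13958 tested genes fell. They numbered 0 to 2, 0 to 6 and 0 to 5 without 1 of the other 5 libraries. In the full comparison 14.3% of all tested genes fell, and the endothelial and stellate counts are near that share. Of 9 lymphocyte markers 0 passed by edgeR's test or by DESeq2 (2 at an unadjusted p under 0.05), and of 8 red cell markers 0 did so (0 at an unadjusted p under 0.05). Cdh5, an endothelial cadherin, was at 9.51, 6.66 and 7.93 CPM in the BH-KO libraries and 8.56, 37.8 and 26.2 CPM in the BH-WT libraries (-1.60 ± 0.45, adjusted p = 0.0174), and Col14a1, a collagen, at 24.5, 22.8 and 21.1 CPM in the BH-KO libraries and 28.3, 59.8 and 45.6 CPM in the BH-WT libraries (-0.97 ± 0.27, adjusted p = 0.0154). BH-WT replicate 2, with the highest macrophage sum, was also the highest for both. Interferon response genes gave 1 rise and 9 falls of 35, against 7 rises and 2 falls in H-KO, and the interaction was lower in BH-KO for 9. Without BH-KO replicate 1, 15 fell, and 3 to 10 fell without 1 of the other 5 libraries. Irf7, a regulator of this response, was at 29.9, 6.94 and 10.7 CPM in BH-KO replicates 1, 2 and 3, against 33.4, 54.5 and 53.4 CPM in BH-WT replicates 1, 2 and 3 (-1.61 ± 0.49, adjusted p = 0.0247). Macrophages express such genes too, and the part of the macrophage difference in this result was not tested. Of 14 cholangiocyte and progenitor markers, 5 rose and 2 fell, with a median of -0.66 (medians of -0.25, -0.60 and -0.16 in the 3 BH-KO libraries). Without BH-KO replicate 1, 5 rose and 5 fell, and 4 to 5 rose and 0 to 3 fell without 1 of the other 5. Ehf, an epithelial factor, fell, with 0.594, 0.475 and 0.264 CPM in the BH-KO libraries and 0.982, 5.88 and 0.639 CPM in the BH-WT libraries (-2.54 ± 0.72, adjusted p = 0.017), and BH-WT replicate 2 was the highest library. Sox9, a factor of bile duct cells, was at 26.7, 59 and 65.5 CPM in BH-KO replicates 1, 2 and 3, against 4.07, 2.82 and 4 CPM in BH-WT replicates 1, 2 and 3 (3.81 ± 0.46, adjusted p = 7.92e-05). Prom1, a membrane protein of progenitor cells, was at 0.891, 46.3 and 52.1 CPM in the BH-KO libraries and 0.702, 5.39 and 1.12 CPM in the BH-WT libraries (3.73 ± 1.13, adjusted p = 0.0252), and replicate 1 was at the BH-WT level. Inhbb, an activin subunit, rose in all 3 BH-KO libraries (28.2, 18.3 and 13.3 CPM in the BH-KO libraries and 0.14, 1.1 and 0.959 CPM in the BH-WT libraries; 4.72 ± 0.54, adjusted p = 3.14e-05), with replicate 1 the highest.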

How the data were processed

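RNA-seq libraries of mouse liver were compared from 1 table of read counts per gene deposited by the authors. Per the submitters' processing notes STAR 2.6 and the build mm10 were used; no source used here names the counter, its annotation or its use of strand, so antisense and overlapping genes are uncertain. Of 52636 genes, 22756 had 0 counts throughout. Genes were kept with filterByExpr (minimum count 10), which left 13958, and tested with edgeR 4.0.16 (TMM factors, quasi-likelihood, Benjamini-Hochberg adjusted p under 0.05) in R 4.3.3 over all 18 libraries, with limma 3.58.1 and DESeq2 1.42.0 as alternatives. A prior count of 2 was used for log2 CPM and not set in the test. P-values measure the spread between libraries. Gene lists, like the comparison itself, were chosen with earlier results of these data known. Named genes were Arntl and Hnf4a, the 10 largest rises and falls of 2796 that passed without overlap (mean of at least 5 CPM in a group), of each list the largest changes or spans, and the widest spans within BH-KO; others are said to be chosen after their values were seen, and some genes under the rule are not reported here. Coordinates come from GENCODE M21, matched by ID for 13945 tested genes, and promoter windows from RefSeq (GRCm38.p6).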

Additional observations from a re-analysis of the deposited data

Results flagged for a closer look

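For 16 of 41 named genes tested, the effect of BH-KO against BH-WT differed from that of H-KO against H-WT by the interaction contrast of the edgeR fit, with Benjamini-Hochberg adjustment over 13958 genes. Values are log2 differences between the 2 effects, positive where the effect was higher in BH-KO, and 19 of the 41 passed without BH-KO replicate 1. Over all genes tested 846 passed (6.06%). The 41 include the largest rises and falls of BH-KO against BH-WT, a difference that is part of this contrast. Large values were thus favoured by the choice, and the 2 shares cannot be compared. Partners of BMAL1 and the gene itself had higher effects, with 4.43 for Arntl (adjusted p = 0.000938), 6.31 for Npas2 (0.0378) and 1.48 for Clock (0.00756). Also higher were the effects of 1.06 for Rora (0.0162), 3.51 for Cry1 (0.00284), 1.23 for Nfil3 (0.0257) and 2.26 for the ligase subunit gene Fbxl21 (0.00225). Lower effects were -4.16 for Nr1d1 (8.47e-05), -2.29 for Nr1d2 (4.58e-05), -3.90 for Dbp (0.000203), -2.99 for Per3 (0.00136), -3.62 for Bhlhe41 (0.00944) and -0.9 for Tef (0.0247). Outside the clock list the effects were higher for Cdkn1a, at 2.66 (0.0331), Nckap5, at 5.63 (0.00341), and Tox2, at 4.6 (0.00237). The adjusted p exceeded 0.05 under at least 1 alternative for Cdkn1a (0.105 at the highest), Nfil3 (0.0675), Npas2 (0.164) and Tef (0.07). Rora and Fbxl21 did not pass in BH-KO against BH-WT itself, where Rora gave 0.06 (adjusted p = 0.821) and Fbxl21 0.33 (0.314).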

How the results depend on the processing

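Counts of called genes depended most on which libraries entered. Of 3990 genes in BH-KO against BH-WT (2000 risen, 1990 fallen), 1821 (901 and 920) passed at an adjusted p under 0.01, 1793 (740 and 1053) were also at least 2-fold, and 6589 (3256 and 3333) passed by limma-voom with library quality weights, where BH-KO replicate 1 had a weight of 0.14. BH-KO and BH-WT fitted alone gave 1096 (536 and 560), or 4902 without BH-KO replicate 1, a setting chosen after seeing the data. With all 6 libraries of these groups alone, 0 P450 genes rose and 8 fell, 3 sugar and glycogen genes rose and 7 fell, 7 p53 targets rose and 2 fell, 3 replication genes rose and 1 fell, and 2 ribosomal protein genes rose. With 1 library left out the count of all genes ran from 2330, when it was BH-KO replicate 2, to 5916, when it was BH-KO replicate 1, from 1203 to 2808 for risen and from 1127 to 3108 for fallen genes; it was 2416 without BH-KO replicate 3. Replicate numbers gave no sign of pairing the libraries, as deviations of same-numbered libraries correlated at -0.044, -0.036 and -0.111. Replicate 1 sets most of the deviations within BH-KO, so these values cannot exclude a pairing. A replicate block gave 2949 genes over all libraries and 244 (97 and 147) with these 6 alone. The 846 genes whose effect differed from H-KO became 516 with no filter, 1394 by DESeq2, 1560 with quality weights, 286 with a replicate block and 498 with the 4 groups at 10 weeks alone. They ran from 344 to 1247 with 1 library left out, with 371 without BH-WT replicate 2, 457, 344 and 398 without H-KO replicates 1, 2 and 3, and 531 and 497 without H-WT replicates 2 and 3. Upper-quartile scaling moved the median of all genes to 0.11, against 0.03, and the share of risen among called genes to 59.8%, against 50.1%. At 10 CPM or more, 16.2% of genes spanned over 2-fold in BH-KO and 5.43% in BH-WT, and BH-WT replicates 1 and 3 lay 0.365 apart. Of the 167 named genes followed over the settings, only Rora changed sign, and it did not pass. Rora gave -0.15 with quality weights and -0.24 to 0.19 with 1 library left out, the lowest without BH-KO replicate 1. With these groups alone and without that library it gave -0.24. Genes named only for their spread within BH-KO were not among the 167. C9, named for its spread, changed sign without BH-KO replicate 1, as given above. Most lost calls of named genes came from leaving out BH-KO replicates 2 (53) or 3 (47) and with the 6 libraries alone (76, and 104 with the block). The cause of these differences was not tested.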
